A study of Cyanidioschyzon merolae with 29 samples.

Results

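*CMJ101C*, the gene of *Cyanidioschyzon merolae* described in the deposited table as a member of the hsp20 family of small heat shock proteins, was followed through 29 RNA-seq libraries. It is 1 gene of the 4984 counted and was chosen by its locus tag, and no other gene carried a description of that class. The alga was strain NIES-3377, a unicellular red alga of hot acidic water, and every library came from algal cells grown in 2x Allen medium at acid pH under continuous white light. Cultures received no Ni, 1 mM Ni or 3 mM Ni, given as nickel sulfate when they were started. Untreated cultures were sampled on days 0, 5, 10 and 15 and Ni cultures on days 5, 10 and 15, with 3 libraries in each of the 10 conditions except 1 mM Ni on day 15, which had 2. Cultures are named here by their labels, C1 to C5 without Ni, 1A to 1E at 1 mM and 3A to 3E at 3 mM Ni. A label recurs on several days, and the labels do not say whether it is then the same flask. The mRNA was enriched by poly(A) selection from bulk cells, so that fewer cells of a kind and less RNA per cell cannot be told apart.

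Small heat shock proteins bind proteins that start to unfold and hold them in a form that can still be refolded. They use no ATP themselves, and the refolding is done by the HSP70 system and, where present, by disaggregases of the Hsp100 family. In many organisms their genes are nearly silent without stress and are switched on by heat shock factors when damaged protein accumulates. Heavy metals such as Ni also damage proteins. In *C. merolae*, *CMJ101C* is known as a heat-inducible gene, and its promoter has been used to drive genes by a heat pulse.

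*CMJ101C* lies on chromosome 10 at 295921 to 296640 of the ASM9120v1 assembly, as RefSeq gives it, with an annotated length of 720 bases that is the coding sequence. On one side it has *CMJ100C* at a distance of 345 bases, *CMJ099C* (formate--tetrahydrofolate ligase) and *CMJ098C* (proline--tRNA ligase). On the other side are *CMJ102C*, the mu subunit of adaptor complex 1, 570 bases away, *CMJ104T* and *CMJ103C*. *CMJ100C*, which has no description in the table, had 0 counts in all 29 libraries. HTSeq's default does not count reads with several alignments, and whether *CMJ101C* shares sequence with another gene was not tested. Of the measured neighbours only *CMJ102C* was called at 3 mM Ni on day 5, with a small rise of 0.58 on the log2 scale (edgeR, adjusted p = 0.00981). *CMJ103C* had the highest correlation with *CMJ101C* among these neighbours (Pearson's r = 0.693 over 29 libraries). Its log2 fold changes on day 5 were 1.00 at 3 mM and 1.235 at 1 mM Ni, and neither passed the test (edgeR, adjusted p = 0.0856 and 0.0946).

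The libraries held 2602444 to 4067107 counts (median 3121668), of which *CMJ101C* had between 72 and 5400. Levels are given as CPM, each count divided by the library's TMM-scaled total and multiplied by 1000000. They are shares of the counted RNA, not amounts per cell. Between 2.10% and 6.82% of counts fell on chloroplast genes. Across all tested genes, the untreated library C3 of day 5 stood apart from C4 and C5 of its day, with root mean square log2 differences of 0.766 and 0.724 against 0.274 between the latter. Library C1 of untreated day 15 stood apart likewise, by 1.04 and 0.975 against 0.391. Fold changes of *CMJ101C* between conditions that rest on these libraries are given with and without them.

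Without Ni, *CMJ101C* was at a mean of 32.3 to 124 CPM, depending on the day. On day 0 it was at 26.5 CPM in C1, 28.5 in C2 and 41.9 in C4. On day 5 it was at 59.7 CPM in C3, 60.4 in C4 and 40.5 in C5. The libraries of both days lay close together and their ranges overlapped, since C5 on day 5 was below C4 on day 0. Day 10 gave 50.2 CPM in C1, 101 in C3 and 39.5 in C5. Day 15 gave 204 CPM in C1, 123 in C3 and 44.6 in C4. The spread thus widened with the age of the untreated cultures, and on day 15 the highest library, C1, is one that stood apart over all genes, while C4 was at the level of day 5.

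Under 3 mM Ni all 9 libraries were above every untreated library. On day 5 *CMJ101C* reached 1213 CPM in 3C, 1593 in 3D and 1151 in 3E. On day 10 it was at 266 CPM in 3A, 236 in 3B and 733 in 3C. Culture 3C thus stood far above 3A and 3B. Over all tested genes 3C of day 10 also stood apart, with root mean square log2 differences of 0.510 and 0.519 against 0.197 between 3A and 3B. So did 3C of day 5, with 0.470 and 0.486 against 0.196 between 3D and 3E. Day 15 gave closer values, of 424 CPM in 3C, 526 in 3D and 435 in 3E. Under 1 mM Ni the day 5 values were 662 CPM in 1A, 757 in 1B and 159 in 1C. Day 10 gave 304 CPM in 1A, 312 in 1B and 233 in 1D. Day 15 gave 174 CPM in 1C and 213 in 1E. Culture 1C was far below the other 1 mM cultures of day 5, yet above all untreated ones of that day, and only on day 15 did 1 mM libraries overlap with untreated ones of the same day.

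**Figure D1:**
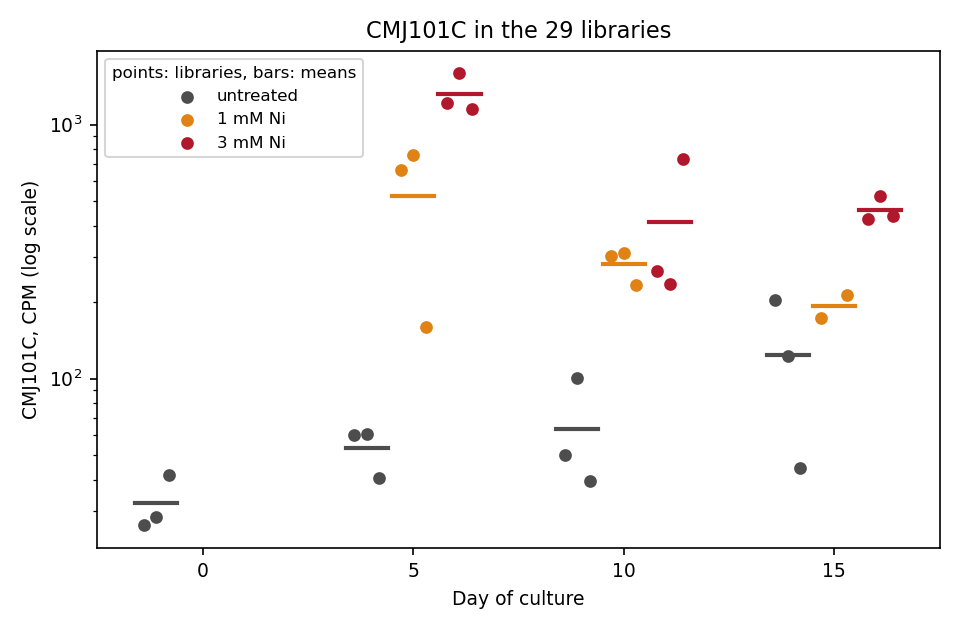
Level of *CMJ101C* in CPM on a log axis by day of culture, for untreated, 1 mM Ni and 3 mM Ni cultures (points, single libraries; bars, means of a condition). The 3 libraries at 3 mM Ni on day 5 lie at 1151 to 1593 CPM, and the 3 untreated ones of that day at 40.5 to 60.4 CPM.

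At 3 mM Ni the rise of *CMJ101C* passed the test on all 3 days. The comparison asks how the transcript responded to the dose and the length of Ni exposure. Means on day 5 were 1319 ± 239 CPM with Ni and 53.5 ± 11.3 without (SD, n = 3 each), a 24.6-fold difference with a 95% interval of 10.9 to 55.5. The log2 fold change was 4.62 (SE 0.57) with an adjusted p of 2.46e-05 in edgeR's quasi-likelihood test, where 10.2% of the 4796 tested genes were called. Without C3 it was 4.71 (edgeR, adjusted p = 1.37e-04), in a fit that called 1157 genes against 489 with C3. On day 10 the level was 412 ± 279 CPM against 63.5 ± 32.9, and the log2 fold change was 2.70 (SE 0.52, edgeR adjusted p = 9.89e-04), with 29.2% of genes called. That day's estimate leaned on culture 3C, and without it the log2 fold change was 1.99 (edgeR, adjusted p = 0.00409). On day 15 the level was 462 ± 55.8 CPM against 124 ± 79.8 and the log2 fold change 1.91 (SE 0.51, edgeR adjusted p = 0.0215), with 10.3% of genes called. The groups did not overlap on any of these days. The day 15 call was the least firm of the 3. It was lost when only the libraries of the compared conditions were fitted (edgeR, adjusted p = 0.206) and also without untreated C4 (adjusted p = 0.0528), 3D (0.0845) or 3E (0.0613), whereas without C1, the highest untreated library, the log2 fold change rose to 2.46 (edgeR, adjusted p = 0.0198).

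At 1 mM Ni *CMJ101C* rose on day 5 and was then closer to the untreated level on each later day. The day 5 mean was 526 ± 321 CPM against 53.5 ± 11.3, a log2 fold change of 3.30 (SE 0.54, edgeR adjusted p = 0.00243). This was 1 of 23 calls of that comparison, in which 0.48% of genes were called. Without 1C, the low library, the log2 fold change was 3.73 and without C3 it was 3.38, and both passed. The fit without C3 called 1425 genes in all, against 23 with it, and *CMJ101C* was then 14th by log2 fold change. The rise on day 5 did not pass when only the libraries of the 2 conditions were fitted (edgeR, adjusted p = 0.0987). On day 10 the mean was 283 ± 43.4 CPM against 63.5 ± 32.9 and the log2 fold change 2.16 (SE 0.51). All 1 mM libraries lay above all untreated ones, but the adjusted p of 0.0994 in edgeR missed the threshold, in a comparison with 0.146% of genes called. DESeq2 called it (adjusted p = 0.00333). On day 15 the mean was 193 ± 28.0 CPM (n = 2) against 124 ± 79.8, the log2 fold change was 0.65 with a 95% interval of -0.48 to 1.77, and the groups overlapped (edgeR, adjusted p = 0.708). Without C1 the log2 fold change was 1.20 and was not called either. No gene was called in that comparison by edgeR (0%), 436 had an unadjusted p under 0.05, and DESeq2 called 1 gene.

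Over the 3 exposure days together, with libraries exchanged only within a day, *CMJ101C* was 8.69-fold higher at 3 mM Ni than without (mean log2 difference 3.12, exact permutation test, two-sided p = 0.00025, the smallest that its 8000 arrangements can give). The mean log2 difference for 1 mM Ni against untreated was 2.05 (exact permutation test, p = 0.001 of 4000 arrangements). Adjusted over the 3 comparisons of this family, these p-values were 0.00075 and 0.0015. When whole culture labels were exchanged instead, both comparisons had an exact p of 0.00794, the smallest that 126 arrangements allow, and 0.0119 after adjustment.

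The dose effect between 1 and 3 mM Ni was less firm than the effect of Ni itself. All 3 mM libraries were above all 1 mM libraries on days 5 and 15, but not on day 10. On day 5 the log2 difference was 1.33, with a 95% interval of 0.31 to 2.34 and an adjusted p of 0.261 in edgeR, which called 0.0834% of genes. It was 0.54 on day 10 (95% interval -0.46 to 1.55, edgeR adjusted p = 0.508, 8.55% of genes called), and without 3C it turned to -0.17. On day 15 it was 1.26 (95% interval 0.09 to 2.43, edgeR adjusted p = 0.999, 0% of genes called, 213 with an unadjusted p under 0.05, 3 called by DESeq2). Over the 3 days the mean log2 difference was 1.07 (exact permutation test, p = 0.0025, and 0.0025 adjusted over the 3 comparisons). With culture labels exchanged it was 0.84 (exact permutation test, p = 0.0794, 5 against 5 labels), so that the difference between the doses did not pass when each label counted once.

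**Figure D2:**
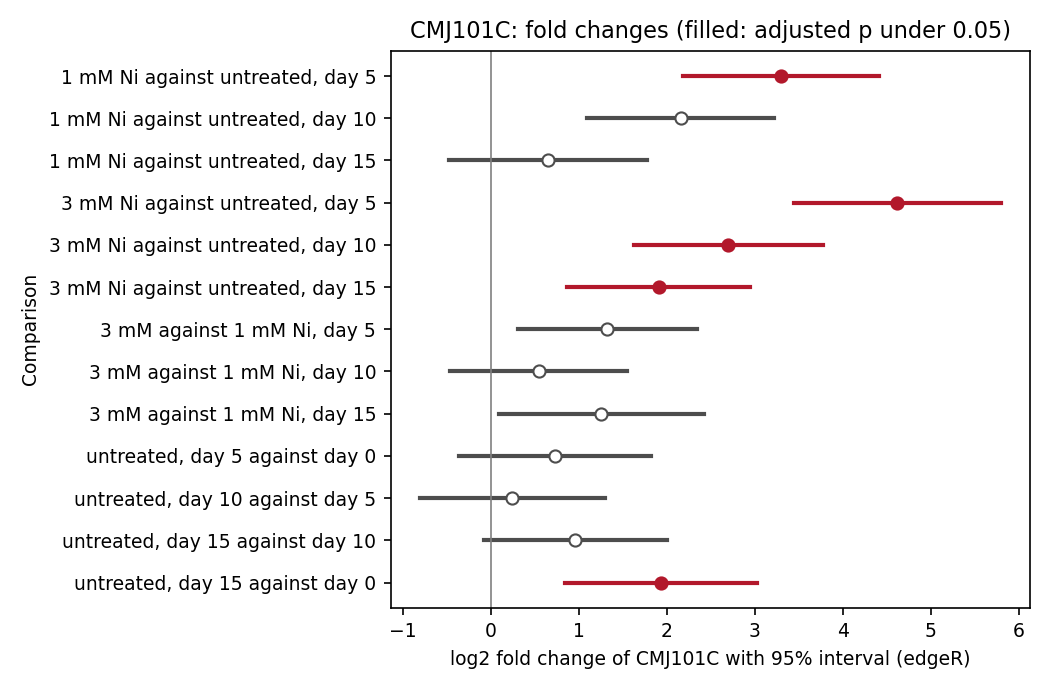
Log2 fold changes of *CMJ101C* (points) with 95% intervals (lines) from edgeR for 13 comparisons, filled where the adjusted p was under 0.05. The 3 comparisons of 3 mM Ni with the untreated culture, 1 mM Ni on day 5 and untreated day 15 against day 0 are filled. The intervals of 3 mM against 1 mM Ni lie lower, and the one of day 10 spans 0.

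In untreated cultures the mean of *CMJ101C* rose from 32.3 ± 8.41 CPM on day 0 to 124 ± 79.8 on day 15 (log2 fold change 1.93, SE 0.53, edgeR adjusted p = 0.00696). Of the labels with libraries on both days, C1 went from 26.5 to 204 CPM and C4 only from 41.9 to 44.6 CPM. The libraries of these days did not overlap, in a comparison in which 36.1% of all tested genes were called. Without C1 of day 15 the log2 fold change was 1.38 and the call was lost (edgeR, adjusted p = 0.0584), as it was when only the libraries of these days were fitted (adjusted p = 0.0669). No single step passed the test. Day 5 against day 0 gave 0.73 (edgeR adjusted p = 0.285, 39.7% of genes called) and 0.64 without C3 of day 5. Day 15 against day 10 gave 0.96 (edgeR adjusted p = 0.206, 10.5% of genes called) and 0.40 without C1 of day 15. Day 10 against day 5 gave 0.25 (edgeR adjusted p = 0.873, 0% of genes called, 530 with an unadjusted p under 0.05, 28 called by DESeq2) and turned to -0.25 without C3 of day 10. Without C3 of day 5 it was 0.33 (edgeR adjusted p = 0.739), in a fit that called 664 genes. On day 15 the untreated mean was thus higher than on day 5 (124 against 53.5 CPM), and the means under Ni were lower. They were 462 against 1319 CPM at 3 mM and 193 against 526 CPM at 1 mM Ni. The part of each in the smaller fold changes of day 15 was not tested.

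Within the Ni cultures the mean of *CMJ101C* was highest on day 5 at both doses, and the later falls did not pass the test in all libraries. At 3 mM Ni the log2 difference of day 10 from day 5 was -1.68, with a 95% interval of -2.70 to -0.66, and all day 10 libraries were below all day 5 libraries (edgeR adjusted p = 0.182, 0% of genes called, 728 with an unadjusted p under 0.05, 37 called by DESeq2). Without 3C on day 10 it was -2.39 and passed (edgeR, adjusted p = 0.0108). From day 10 to day 15 it was 0.16 (edgeR adjusted p = 0.899, 1.71% of genes called), and its sign turned without 3A (-0.07) or 3B (-0.12). At 1 mM Ni the corresponding values were -0.90 (edgeR adjusted p = 0.919, 0% called, 224 with an unadjusted p under 0.05, 3 called by DESeq2) and -0.55 (edgeR adjusted p = 0.999, 0% called, 187 unadjusted, 0 by DESeq2). The 1 mM libraries of days 5 and 10 overlapped, and 1C of day 5, at 159 CPM, was below all later 1 mM libraries. The call of a decline at 3 mM Ni therefore depended on the day 10 library labelled 3C, which at 733 CPM was above all day 15 libraries. Label 3C, the only one with libraries on each of these days, itself went from 1213 to 733 and 424 CPM. Labels 3A and 3B occur on day 10 only. Without 3C, day 10 and the set of labels therefore cannot be told apart.

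Whether the response itself changed between days was tested by interaction contrasts, and none passed. At 3 mM Ni the response of *CMJ101C* on day 10 was lower than on day 5 by a log2 difference of -1.92 (95% interval -3.38 to -0.46, edgeR adjusted p = 0.907), the 5th lowest of all 4796 tested genes. That contrast called 0% of genes, with 254 under an unadjusted p of 0.05 and 4 called by DESeq2. For day 15 against day 10 at 3 mM Ni it was -0.79 (edgeR adjusted p = 0.493, 0% called, 1058 unadjusted, 150 by DESeq2). At 1 mM Ni the changes of the response were -1.14 from day 5 to day 10 (edgeR adjusted p = 0.824, 0% called, 264 unadjusted, 0 by DESeq2) and -1.51 from day 10 to day 15 (edgeR adjusted p = 0.494, 0% called, 466 unadjusted, 0 by DESeq2). All 4 estimates share untreated and treated libraries and are not separate evidence. Single libraries moved them. At 3 mM Ni the change from day 5 to day 10 was -1.42 without untreated C3 of day 10, -2.01 without C3 of day 5 and -2.64 without 3C of day 10. The later change at that dose was -0.08 without 3C of day 10, -0.24 without C1 of day 15 and -1.29 without C3 of day 10. At 1 mM Ni the first change was -0.64 without C3 of day 10, -1.23 without C3 of day 5 and -1.57 without 1C, and the second was -0.95 without C1 of day 15 and -2.01 without C3 of day 10.

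Under Ni *CMJ101C* ranked higher among genes with any count than in the untreated culture of the same day. By mean CPM it ranked 4102 of 4941 genes in untreated cultures on day 0 and 3734 on day 5. Under 3 mM Ni it ranked 47 on day 5, 453 on day 10 and 394 on day 15. Under 1 mM Ni its ranks were 321, 802 and 1381, and in the untreated cultures of day 15 it was 2246. A level can be compared between genes only per length, and per kb of coding length it was 44.8 CPM per kb on untreated day 0 and 1832 at 3 mM Ni on day 5. Its ranks on that scale, of 4689 genes with a length, were 3463, 2637, 2259 and 1171 in untreated cultures of days 0, 5, 10 and 15. With 3 mM Ni they were 26, 228 and 170 on days 5, 10 and 15, and with 1 mM Ni 141, 361 and 627. Per length it was thus near the middle of all genes in untreated cultures of days 5 and 10 and in the upper part on day 15, with only day 0 well below the middle. For comparison, the cytosolic HSP70 gene *CMP145C*, the main refolding chaperone of the cytosol, was at 1114 CPM per kb in untreated cultures of day 5 and at 2773 at 3 mM Ni on that day. On this scale *CMJ101C* was far below *CMP145C* without Ni (74.3 CPM per kb on day 5), and was above *CMQ224C* of the Hsp90 family (1450 CPM per kb) at 3 mM Ni on day 5.

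The order of the 10 conditions by mean CPM was 3 mM Ni on day 5, 1 mM on day 5, 3 mM on days 15 and 10, 1 mM on days 10 and 15, and then the untreated cultures from day 15 back to day 0. Neighbours in this order overlapped in their libraries except the 3 mM and 1 mM cultures of day 5 and the 1 mM cultures of days 10 and 15, and neither of these differences passed the test.

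Among all tested genes, *CMJ101C* had the 4th largest log2 fold change at 3 mM Ni on day 5 and the 6th at 1 mM on that day. On day 5 at 3 mM it stood between *CMR119C* (5.60), which has no description, and *CMS155C*, a probable zinc transporter (4.24), and the largest value of that comparison was 7.53 of *CMG092C*, similar to a periplasmic protein p19. On day 5 at 1 mM the genes next to it were *CMI286C*, without a description (3.35), and *CML262C*, a probable metal ion transporter (3.25). Metal transport genes thus stood directly below it at both doses. On later days it fell back in rank, to 20 and 52 at 3 mM Ni and to 16 and 201 at 1 mM. Its neighbours by log2 fold change were then *CMR119C* (2.75) and *CMP236C* (2.58) at 3 mM on day 10, *CMK170C* (1.92) and *CMN060C* (1.87) at 3 mM on day 15, *CMM206C*, similar to a trefoil factor (2.19), and *CMS488C*, similar to a sugar phosphate translocator (2.06), at 1 mM on day 10, and *CMP094C* (0.65) and *CMT075C*, a chloroplast Do-like protease (0.65), at 1 mM on day 15.

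The genes whose log2 CPM followed *CMJ101C* most closely over the 29 libraries were mostly without a description and held no chaperone. The correlations are descriptions over libraries that share 10 conditions, and Pearson's r had a median of -0.013 over the 4795 other tested genes, with 17 genes over 0.8. The closest was *CMK153C* (r = 0.904), followed by *CMR001C*, similar to a trefoil factor (0.884). Then came *CMI068C*, *CMI023C* and *CMC125C* (each 0.881), *CMP094C* (0.872) and *CMI067C* (0.863), none of them described. The list of 10 ended with *CMA106C*, similar to an alpha-glucosidase (0.849), the undescribed *CMM100C* (0.840) and *CMQ075C*, similar to the lipoprotein apbE (0.833). *CMI067C* and *CMI068C* are next to each other on chromosome 9, 433 bases apart. By Spearman's rho 9 of these 10 were again among the 10 closest, and 8 were without C1 of untreated day 15.

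The 10 closest genes were chosen by their correlation over these same libraries, so that their response to Ni follows from the choice and their values are a description. With 3 mM Ni all 10 were called on days 5 and 10, and 8 of them on day 15, where 10.2%, 29.2% and 10.3% of all tested genes were called. With 1 mM Ni 6, 3 and 0 were called, where 0.48%, 0.146% and 0% of all genes were. Their changes differed widely in size. *CMK153C* had lower levels and a larger change, from a mean of 1.06 CPM in untreated cultures of day 5 to 85.9 CPM at 1 mM and 181 CPM at 3 mM Ni. Its single untreated libraries of day 5 were at 0.373 to 1.73 CPM, so that the size of this change rests on few reads. *CMI023C* went from 63.0 CPM to 246 and 381 CPM on the same day, and *CMA106C* only from 75.8 to 99.6 and 201 CPM. *CML262C*, the probable metal ion transporter, was 15th by correlation (r = 0.804) and kept a log2 fold change of 4.00 at 3 mM Ni on day 15 (SE 0.47, edgeR adjusted p = 1.9e-05). The lowest correlations were those of *CMH036C*, an O-acetylserine lyase of cysteine synthesis (-0.808), the chloroplast gene *CMV241C* (-0.806) and *CMO314C*, the photosystem II assembly factor HCF136 (-0.804). On day 5 at 3 mM Ni *CMH036C* fell by 0.78 on the log2 scale (edgeR, adjusted p = 0.00894).

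**Figure D3:**
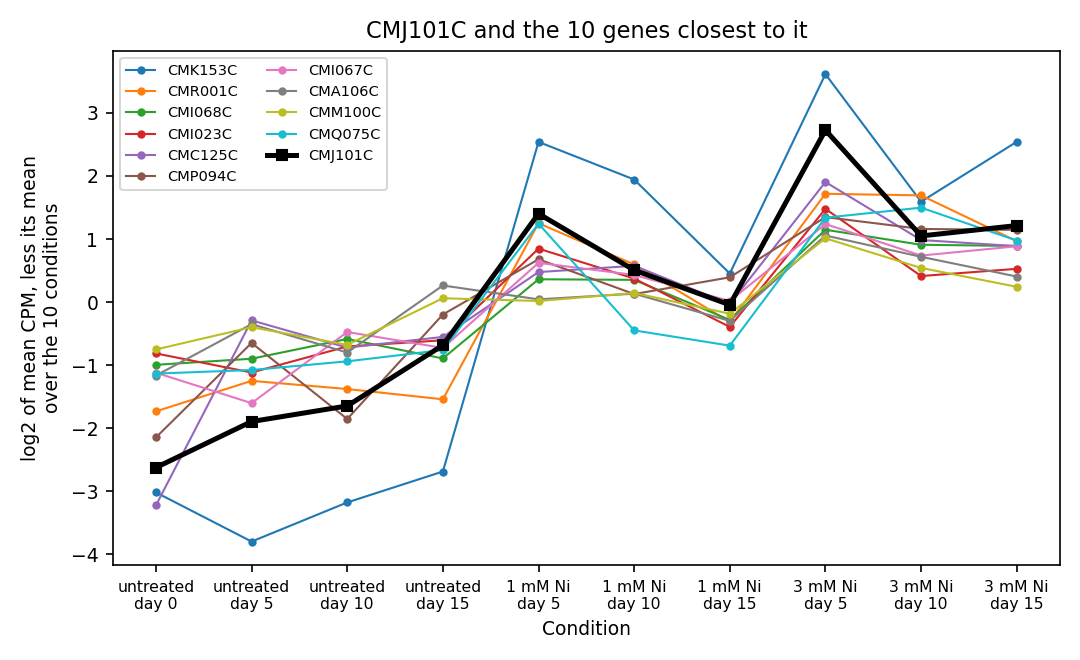
Log2 of the mean CPM in each of the 10 conditions, less each gene's mean over the conditions, for *CMJ101C* (black squares) and the 10 genes with the highest Pearson correlation to it (coloured lines). *CMJ101C* and 9 of the 10 genes are highest at 3 mM Ni on day 5, and *CMK153C* has the widest range.

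The other chaperone genes rose by less than *CMJ101C* in the comparisons in which it was called, and most of their calls fell on day 10 at 3 mM Ni. A list of 58 chaperone and heat shock factor genes, taken by words of the gene descriptions and without *CMJ101C*, was tested in full. At 3 mM Ni on day 5, 10 rose and 1 fell (19.0% of the list against 10.2% of all tested genes), with a median log2 fold change of 0.26 against -0.04 over all genes. On day 10, 21 rose and 4 fell (43.1% against 29.2%), with a median of 0.36 against -0.02. On day 15, 3 rose and 2 fell (8.62% against 10.3%). None was called at 1 mM Ni on any day by edgeR, in comparisons that called 0.48%, 0.146% and 0% of genes, and DESeq2 called 1 on day 5. The counts depended on single libraries, and on day 10 at 3 mM that of 25 became 15 without 3B and 16 without C5. The fit without C5 called 887 genes in all, against 1402 in the main fit. Without C3 of day 5, the untreated library that stood apart, 23 list genes were called at 3 mM and 18 at 1 mM on day 5. Those fits called 1157 and 1425 genes in all, against 489 and 23 in the main fit. At 3 mM on day 5, 3 list genes were called without C4, C5 or 3C and 7 without 3D. Over all genes these fits called 214, 184, 179 and 305. On day 15 the count at 3 mM was 0 without C1, 3D or 3E, 3 without 3C and 10 without C3. The fits without C1 and without C3 called 146 and 843 genes in all, against 494 in the main fit.

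By class, the values at 3 mM Ni on day 10 stand beside 15.0% of all tested genes that rose and 14.2% that fell. Of 12 genes with chaperonin words in their description, 8 rose and none fell. Chaperonins fold proteins inside a ring, and the class also took in a prefoldin subunit, *CMF141C*, and *CMA009C*, described as a GroES-like alcohol dehydrogenase, neither of which was called. The largest change of the class, and of the whole list, was that of *CMF129C*, the mitochondrial lid protein hsp10 (log2 fold change 2.17, SE 0.38, edgeR adjusted p = 4.02e-04). Of the HSP90 genes 3 of 4 rose, led by the co-chaperone p23 *CMQ190C* (1.02, edgeR adjusted p = 0.00941). The HSP70 system, the partner to which small heat shock proteins hand their clients, had 4 of 24 genes that rose (16.7%) and 2 that fell (8.33%), close to or below the shares over all genes. Its largest change was a fall of *CMI136C*, a protein with a DnaJ domain (-1.21, edgeR adjusted p = 0.0011). On day 5 at 3 mM Ni, by contrast, 5 of the 24 rose (20.8% against 5.42% of all genes). A single one, *CMI136C*, fell (4.17% against 4.77%). Those that rose included *CMP145C* (1.32, edgeR adjusted p = 0.0256) and *CMS343C* (1.39, edgeR adjusted p = 0.00538). On day 10 one ClpB gene, *CMS128C*, of the family that pulls aggregates apart, fell by 0.55 on the log2 scale (edgeR, adjusted p = 0.0192). Of 13 other folding genes 5 rose, with the trigger factor *CMI148C*, a helper of nascent chains, in front (0.86, edgeR adjusted p = 0.0192). Of the 3 heat shock factors, the transcription factors of the heat shock response, *CMT597C* rose (1.48, edgeR adjusted p = 0.00546) and *CMO187C* fell. No list gene was called in 3 or more of the 6 comparisons, while *CMJ101C* was called in 4. Only at 1 mM Ni on day 15 did a list gene, *CMK015C*, similar to a protein disulfide isomerase (0.86), have a larger log2 fold change than *CMJ101C*, and neither was called there. On day 15 the chloroplast-encoded dnaK gene *CMV163C* had a log2 fold change of -2.68 (SE 0.93) at 1 mM and -2.23 (SE 0.78) at 3 mM Ni. These were larger in size than those of *CMJ101C* and not called (edgeR, adjusted p = 0.536 and 0.0651). The untreated mean of *CMV163C* was 527.5 CPM on day 15, against 113 and 75.8 on days 5 and 10. That day includes C1, where the chloroplast gene psbA was at 8292 CPM, against 90.1 in C3 and 163 in C4. *CMO187C*, *CMK015C* and *CMV163C* were picked for this after their values were seen.

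**Figure D4:**
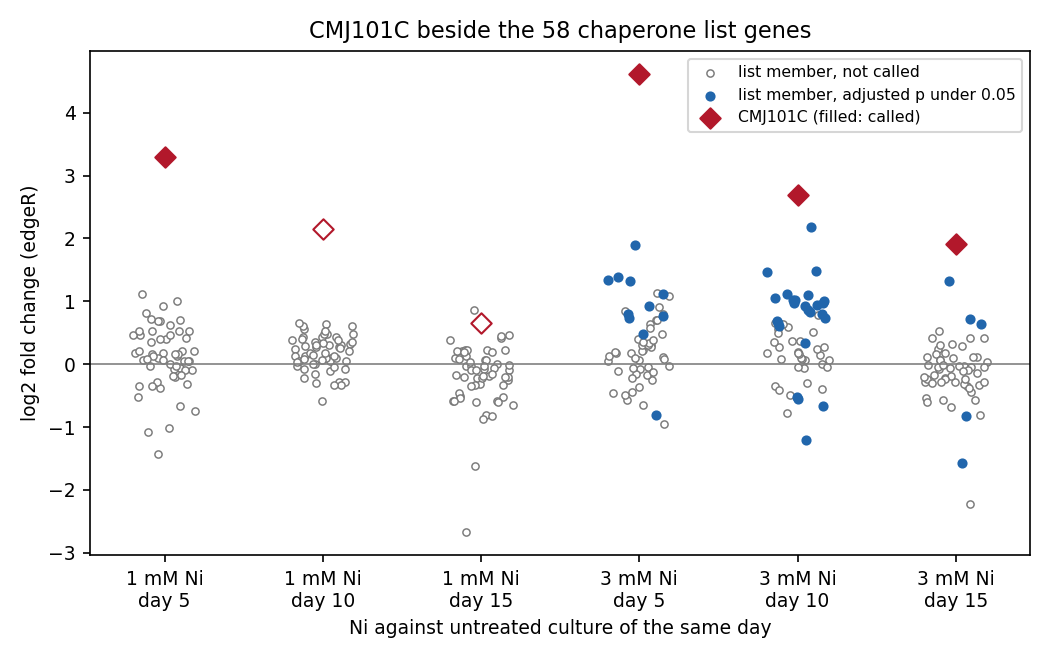
Log2 fold changes from edgeR against the untreated culture of the same day, for the 58 chaperone list genes (circles, filled where the adjusted p was under 0.05) and *CMJ101C* (diamonds, filled where called). *CMJ101C* lies above every list gene in 5 of the 6 comparisons, and in the sixth, 1 mM Ni on day 15, *CMK015C* lies above it.

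Over all libraries the chaperone list followed *CMJ101C* weakly. The median Pearson's r was 0.17, the highest 0.671 for the chaperonin subunit *CME197C*, 122nd of all genes, and no list gene was among the 100 closest. This changed once the condition means were taken out, so that only the differences between libraries of one condition were left. By these deviations 3 of the 10 closest genes were on the list, where its 58 genes make up 1.21% of those compared. They were the heat shock factor *CMT597C* (r = 0.669), the HSP70 gene *CMP145C* (0.662) and the HSP110 gene *CMS343C* (0.643), an exchange factor of HSP70, and they were noted after their values were seen. The whole list did not share this, with a median r of 0.093 and 38 of 58 genes positive. Without C1 of day 15 the values were 0.587, 0.657 and 0.568, at ranks 12, 4 and 17. Without C3 of day 5 in addition they were 0.589, 0.690 and 0.576, at ranks 36, 9 and 42, so that only *CMP145C* was still among the 10 closest.

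Some of the libraries behind these values can be named. In untreated cultures of day 15, where *CMJ101C* was at 204, 123 and 44.6 CPM in C1, C3 and C4, *CMT597C* was at 41.8, 22.0 and 10.2 CPM in the same order. *CMP145C* was at 11060, 2800 and 2668 CPM in these libraries, and *CMS343C* at 1203, 491 and 373 CPM. On untreated day 10, culture C3 was highest for *CMJ101C* (101 CPM against 50.2 and 39.5) and for *CMT597C* (25.3 CPM against 9.23 and 9.94). It was highest for *CMP145C* as well (2853 CPM against 2388 and 1820), but not for *CMS343C*, which was at 265 CPM in C3, 335 in C1 and 252 in C5. At 1 mM Ni on day 5 the low culture 1C, with 159 CPM of *CMJ101C* against 662 and 757, also had the least *CMT597C*, at 15.1 CPM against 28.2 and 29.5, and the least *CMP145C*, at 3298 CPM against 4155 and 4200. Over all genes 1C was close to its fellows, with root mean square log2 differences of 0.272 and 0.284 against 0.190 between 1A and 1B. *CMK153C*, the closest gene over all libraries, was not low in 1C, with 93.5 CPM against 82.2 and 82.0. At 3 mM Ni on day 10 the pattern was partial, since 3C was highest for *CMJ101C* (733 CPM), *CMP145C* (4835 CPM against 3627 and 3664) and *CMS343C* (755 CPM against 447 and 463), but lowest for *CMT597C* (34.3 CPM against 49.9 and 39.9). On untreated day 0, C4 was highest for *CMJ101C* (41.9 CPM), *CMP145C* (4299 CPM) and *CMS343C* (725.5 CPM), but lowest for *CMT597C* (24.0 CPM). At 1 mM Ni on day 15, 1E was above 1C for *CMJ101C* and *CMP145C* (3037 against 2984 CPM). It was below 1C for *CMT597C* (16.7 against 21.4 CPM) and *CMS343C* (369 against 540 CPM). What set the named libraries apart was not tested.

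**Figure D5:**
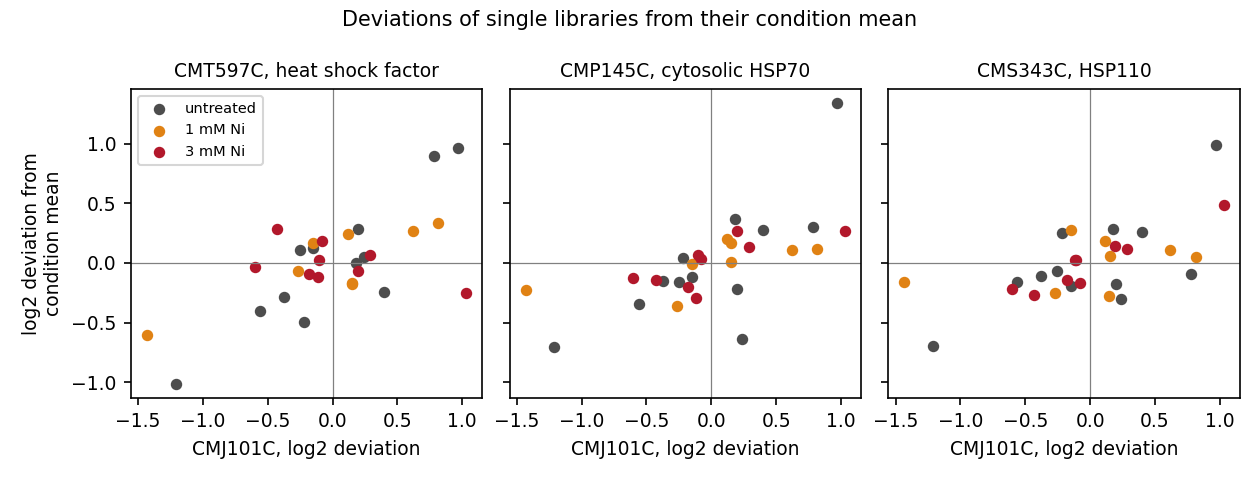
Log2 deviation of each of the 29 libraries from the mean of its condition, for *CMJ101C* (horizontal axes) against *CMT597C*, *CMP145C* and *CMS343C* (vertical axes), coloured by dose. Points tend to run from lower left to upper right in each panel (r = 0.669, 0.662 and 0.643), with the untreated library C1 of day 15 highest. Library 3C of day 10 lies furthest right (1.03), and in the *CMT597C* panel it is at -0.25.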

How the data were processed

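Per the labels and the study's methods, the authors used Trimmomatic 0.39 for trimming, HISAT2 for alignment to ASM9120v1, GATK to drop optical duplicates and HTSeq to count reads per gene with the reverse strand setting. For HTSeq the methods and the submitters' processing notes give different versions. They deposited raw counts of 4984 genes. Multi-mapping reads are left out by default, which lowers counts of genes with close copies.

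Counts were tested in R 4.3.3 with edgeR 4.0.16 (TMM, quasi-likelihood, filterByExpr), in a single fit of 29 libraries with 1 coefficient for each of 10 conditions. The filter kept 4796 genes. P-values were adjusted by Benjamini-Hochberg over all of them, with a threshold of 0.05. The common biological coefficient of variation was 0.205, that of *CMJ101C* 0.411. The exact permutation test used log2 CPM with a prior count of 2, as did the correlations. The alternatives were DESeq2 1.42.0 (its size factors, its Wald test), limma 3.58.1 with voom, nuclear genes only, other filters, only the compared conditions, replicate blocks, levels per length, a prior count of 0.5, other correlations, and each library left out. limma-voom without a block was added after seeing the data. In counts simulated for 3 mM Ni on day 5 (4775 genes, 200 of them changed), edgeR recovered 95% of 4-fold and 75% of 2-fold changes, with 10 false calls among 180.

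Groups came from the sample titles. *CMJ101C*, the chaperone list and the comparisons were chosen with earlier results of these data known. Genes named are the 3 annotated neighbours on either side, for each chaperone class the largest absolute log2 fold change at 3 mM Ni on day 10, members called in at least 3 comparisons, the 10 highest and 3 lowest correlations, the genes next to *CMJ101C* by log2 fold change, and *CMK153C* and *CML262C*, which the study names beside it. HSP70, HSP90, HSP110 and other genes outside this rule were named after their values were seen. Descriptions were read from the deposited table, where 2131 genes have none, and coordinates from RefSeq, to which 4730 of 4984 locus tags matched. The study's methods speak of 3 independent biological replicas. Nothing in the labels says that libraries came from separate flasks on each day. The main edgeR p-values rest on the spread between these libraries, with each library taken as independent.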

Additional observations from a re-analysis of the deposited data

How the results depend on the processing

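The calls of *CMJ101C* at 3 mM Ni on days 5 and 10 held under all alternatives run. With only the compared conditions fitted, 4 log2 fold changes crossed the threshold, those of 1 mM Ni on day 5 (3.30), 3 mM on day 15 (1.91) and untreated day 15 against day 0 (1.93), which lost the call, and 1 mM on day 10 (2.16), which gained it. The latter also gained it with DESeq2 (2.17) and with a block for each culture label's rank within its day (2.28), a fit in which untreated day 10 against day 5 reversed (-0.27). Of 18 pairs of same-labelled libraries from different days, 2 had deviations that correlated with r over 0.1 (median -0.0407). Differently labelled pairs were not compared, and the deviations are from means of 2 or 3 libraries. These values therefore cannot say whether a label is the same flask. With culture number as a replicate block, untreated day 15 against day 0 was 1.57 and lost its call (edgeR, adjusted p = 0.174), with 4 residual degrees of freedom. The replicate block by culture label in limma-voom changed no call of *CMJ101C*, for example 4.66 at 3 mM on day 5, and its consensus correlation was -0.0538. With culture labels permuted, 3 against 1 mM Ni over all days gave 0.844 and was no longer past the threshold.

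Chaperone list counts at 3 mM Ni on day 5 were 11 in the main fit, 4 with only the compared conditions and 17 with DESeq2. Over all genes these fits called 489, 121 and 646. On day 15 the list counts were 5 in the main fit, and 0, 8, 3, 3 and 3 in other fits. In that order these were the compared conditions, DESeq2, the replicate block, limma-voom without a block (chosen after seeing the data) and the rank block. Over all genes the main fit called 494, and these fits 13, 697, 325, 338 and 455. At 1 mM on day 5 the list count of 0 became 1 with DESeq2 and 7 with the rank block. These fits called 207 and 366 genes in all, against 23 in the main fit. Of the 10 genes closest to *CMJ101C*, 1 was again among the 10 closest by deviations from condition means.

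Leaving out 1 library at a time, log2 fold changes ranged from 2.94 to 3.73 (1 mM, day 5), 1.50 to 2.46 (3 mM, day 15) and 1.38 to 2.34 (untreated, day 15 against day 0), from -0.25 to 0.49 (untreated, day 10 against day 5), from -2.39 to -1.40 and from -0.12 to 0.88 (3 mM, day 10 against day 5 and day 15 against day 10), and from -0.17 to 0.82 (3 against 1 mM, day 10). Chaperone counts ranged from 0 to 18 (1 mM, day 5), 3 to 23, 15 to 23 and 0 to 10 (3 mM, days 5, 10 and 15). The fits with the highest day 5 counts, without C3, called 1425 genes in all at 1 mM and 1157 at 3 mM.

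Depth limited little for *CMJ101C*, whose lowest count was 72. The spread between libraries and 2 to 3 libraries per condition set the precision.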

Other observations

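The other genes whose library-to-library deviations within a condition were closest to those of *CMJ101C* included *CMC125C*, without a description (r = 0.740 over 29 libraries), and *CMT333C*, similar to an inorganic phosphate transporter (0.673). *CMJ270C*, of a cytochrome P450 family with sterol desaturases in plants, was at 0.651 and *CMS211C*, similar to a D-amino acid oxidoreductase, at 0.655. *CMC125C* was the only one of the 10 closest by deviations that was also among the 10 closest over all libraries. Without C1 of untreated day 15 it stayed the closest (0.694), and without C3 of day 5 in addition it was at 0.856. On day 5 its mean level was 107 CPM without Ni, 182 CPM at 1 mM Ni and 490.0 CPM at 3 mM Ni. These genes were noted after their values were seen, and the correlations are descriptions of libraries that share their preparation.

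The undescribed neighbours *CMI067C* and *CMI068C*, both among the 10 closest genes, differed in level. *CMI067C* had mean levels of 0.823 CPM in untreated cultures of day 5 and 5.90 CPM at 3 mM Ni of that day, and *CMI068C* 65.1 and 269 CPM. Both passed the test at 3 mM Ni on all 3 days (edgeR, adjusted p at most 0.0293 for *CMI067C* and 1.01e-04 for *CMI068C*). Per length the difference was smaller, with 4.81 and 34.5 CPM per kb for *CMI067C* (171 bases) and 16.2 and 66.8 CPM per kb for *CMI068C* (4026 bases). In single untreated libraries of day 5 *CMI067C* was at 0.373 to 1.38 CPM, so that its untreated level rests on few reads.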
